A study of Mus musculus with 20 samples.

Results

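Interferon-inducible GTPases are among the most strongly induced proteins of the interferon response in mouse macrophages. Guanylate-binding proteins (GBPs) and immunity-related GTPases (IRGs) bind and cleave GTP, assemble on vacuoles that hold intracellular bacteria or parasites, and help to expose or destroy what lies inside. Interferon-gamma acts through the kinases Jak1 and Jak2 and often through the factor Irf1, while type I interferons act through Jak1 and Tyk2 and through Stat2 and Irf9. Within the IRG family, members such as Irgm1, Irgm2 and Igtp (also called Irgm3) regulate the other IRGs and keep them off the membranes of the cell itself. A further family, the very large inducible GTPases, is known in the mouse chiefly from Gvin1 and a set of pseudogenes around it.

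The 7 genes described here were Gbp2, Gbp3 and Gbp7 of the GBP family, Igtp, Irgm1 and Irgm2 of the IRG family, and Gm1966, a pseudogene of the very large GTPase family. They were chosen by symbol from a table of 14456 genes, with results of the same table known, and the choice rested on values of the macrophages exposed to BMDM-HG-exo. All 7 genes were listed in the table. Another 21 listed genes of these families and of the Mx family served as a comparison.

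Bone marrow-derived macrophages (BMDM) were grown with M-CSF from the marrow of young adult male wild-type C57BL/6 mice. In the glucose experiment, 4 cultures of BMDM were kept for a day at 25 mM glucose, here called high glucose. Normal glucose was 5.5 mM made up with 19.5 mM mannitol (n = 4). In the exosome experiment, naive BMDM were exposed for a day to PBS (n = 4), to exosomes of BMDM kept in normal glucose (BMDM-NG-exo, n = 4) or to exosomes of BMDM kept in high glucose (BMDM-HG-exo, n = 4). Each exosome sample came from a separate exosome preparation, and the 4 replicate numbers of the exosome experiment stand for the same 4 dates in each of its groups. The labels do not say whether the libraries of a group came from separate mice, so that p-values measure the spread between these libraries. The reads behind the values added up to between 34016445 and 56310712 per library (median 43311931). Each of the 7 genes had between 254 and 3069 reads in every library. These are bulk cultures, in which fewer cells of a type and less RNA per cell cannot be told apart. All 7 macrophage markers of a fixed list were present, whereas none of 6 T and NK cell, 4 dendritic cell or 4 erythroid markers was listed. A marker that is not listed may still have had low counts. The listed genes of the B cell (1 of 5), neutrophil (3 of 5) and fibroblast (3 of 4) lists summed to at most 68.0, 145 and 349 normalized counts in a library, against at least 620993 for the macrophage markers.

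In the GRCm38 build, Gbp7, Gbp3 and Gbp2 lie in this order on the plus strand of chromosome 3. Gbp7 is ENSMUSG00000040253 (142530342 to 142550149), Gbp3 is ENSMUSG00000028268 (142560026 to 142573209) and Gbp2 is ENSMUSG00000028270 (142620602 to 142638008). Igtp (ENSMUSG00000078853, 58199556 to 58207591) and Irgm2 (ENSMUSG00000069874, 58199618 to 58222782) overlap each other on the plus strand of chromosome 11. Irgm1 (ENSMUSG00000046879, 48861968 to 48871683) lies on the minus strand of the same chromosome. Gm1966 (ENSMUSG00000073902) is annotated as an unprocessed pseudogene on the minus strand of chromosome 7, from 106596743 to 106604035. The annotated exons of Igtp and Irgm2 shared 162 bases on the same strand, which is 8.01% of the exon bases of Igtp and 4.39% of those of Irgm2. Reads from these bases cannot be given to 1 of the 2 genes. The longest transcript of each gene was also cut into all overlapping stretches of 100 bases. Of these stretches, 5.67% in Igtp occurred letter for letter in a transcript of another gene. The share was 2.48% in Irgm2, 10.2% in Gbp7, 1.06% in Gm1966 and 0.929% in Gbp3. No such stretch was found for Gbp2 or Irgm1. Each stretch spans 100 bases, so the share of bases that lie in a shared stretch is larger. In Gbp7 most shared stretches were shared with the annotated gene Gm43802. How far this affects the Gbp7 counts was not tested.

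The promoters are shown because 6 of the 7 genes carry the same short element close to the start of transcription. The RefSeq promoters (GRCm38.p6, 250 bases before to 50 after the start) were searched on both strands for GAAA followed after any 2 bases by GAAA again, the core of the interferon-stimulated response element (ISRE) to which Irf factors bind, and for TTCNNNGAA, the core of the gamma-activated site (GAS). Capitals mark the matches. Each window holds 100 bases, read 5′ to 3′ on the strand of the gene, from base -110 to base -11 relative to the start, except that of Gm1966, which runs from -208 to -109.

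Gbp2 (chr3:142620553-142620652, plus strand): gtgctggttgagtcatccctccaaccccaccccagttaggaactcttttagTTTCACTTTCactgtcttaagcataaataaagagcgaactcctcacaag
Gbp3 (chr3:142559934-142560033, plus strand): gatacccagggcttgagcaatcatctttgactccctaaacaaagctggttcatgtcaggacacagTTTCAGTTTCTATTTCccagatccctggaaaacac
Gbp7 (chr3:142530226-142530325, plus strand): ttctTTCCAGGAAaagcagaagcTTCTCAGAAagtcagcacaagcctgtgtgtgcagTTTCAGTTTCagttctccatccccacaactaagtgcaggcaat
Igtp (chr11:58199446-58199545, plus strand): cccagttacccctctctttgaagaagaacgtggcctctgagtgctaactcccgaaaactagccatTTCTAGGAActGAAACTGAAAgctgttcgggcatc
Irgm1 (chr11:48871431-48871530, minus strand): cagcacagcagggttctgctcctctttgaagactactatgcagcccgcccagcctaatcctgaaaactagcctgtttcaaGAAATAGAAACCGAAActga
Irgm2 (chr11:58214867-58214966, plus strand): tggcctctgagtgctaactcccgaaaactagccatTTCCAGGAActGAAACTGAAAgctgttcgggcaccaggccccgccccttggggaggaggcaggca
Gm1966 (chr7:106644754-106644853, minus strand): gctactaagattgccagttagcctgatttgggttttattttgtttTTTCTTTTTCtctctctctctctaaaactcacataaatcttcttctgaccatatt

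An ISRE core match lay between bases -110 and -11 in Gbp2, Gbp3, Gbp7, Igtp, Irgm1 and Irgm2. Among all 32851 promoters of the table, 1.00% held a match in these 100 bases and 3.44% held one anywhere in the promoter. The match began at base -59 in Gbp2, -53 in Gbp7, -64 in Irgm2 and -34 in Igtp. The GBP genes held it on the opposite strand and the IRG genes on the strand of the gene. Gbp3 and Irgm1 each had 2 matches that overlap each other. A TTCNNNGAA match was present in Gbp7, Igtp and Irgm2, against 8.30% of all promoters. In Igtp and Irgm2 it lay just before the ISRE core match. Laid over each other at that match, 58 of 60 bases of the Igtp and Irgm2 promoters were identical (96.7%), whereas Igtp and Irgm1 shared 32 of 60 and the 3 pairs of GBP genes between 22 and 27 of 60. For Gm1966 the RefSeq start lies 40610 bases from the GENCODE gene, and its match, within a run of pyrimidines at base -163, is further from that start than in the other genes. The RefSeq start of Irgm2 lies 15359 bases from its GENCODE start, inside the annotated gene and beyond the end of Igtp. A second RefSeq start of Gbp3 had no match. These are matches of letters, and no binding was measured.

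The table holds normalized counts, which are gene counts divided by a size factor of the library. Per kb of annotated exon, averaged over the 20 libraries, Irgm2 (378 normalized counts per kb) and Irgm1 (358) stood highest, followed by Gbp3 (272), Igtp (266) and Gbp2 (265). Gbp7 (96.5) and Gm1966 (59.4) were far lower. With the length of the longest transcript in place of all exons, Irgm1 came first, at 542 per kb.

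**Figure D1:**
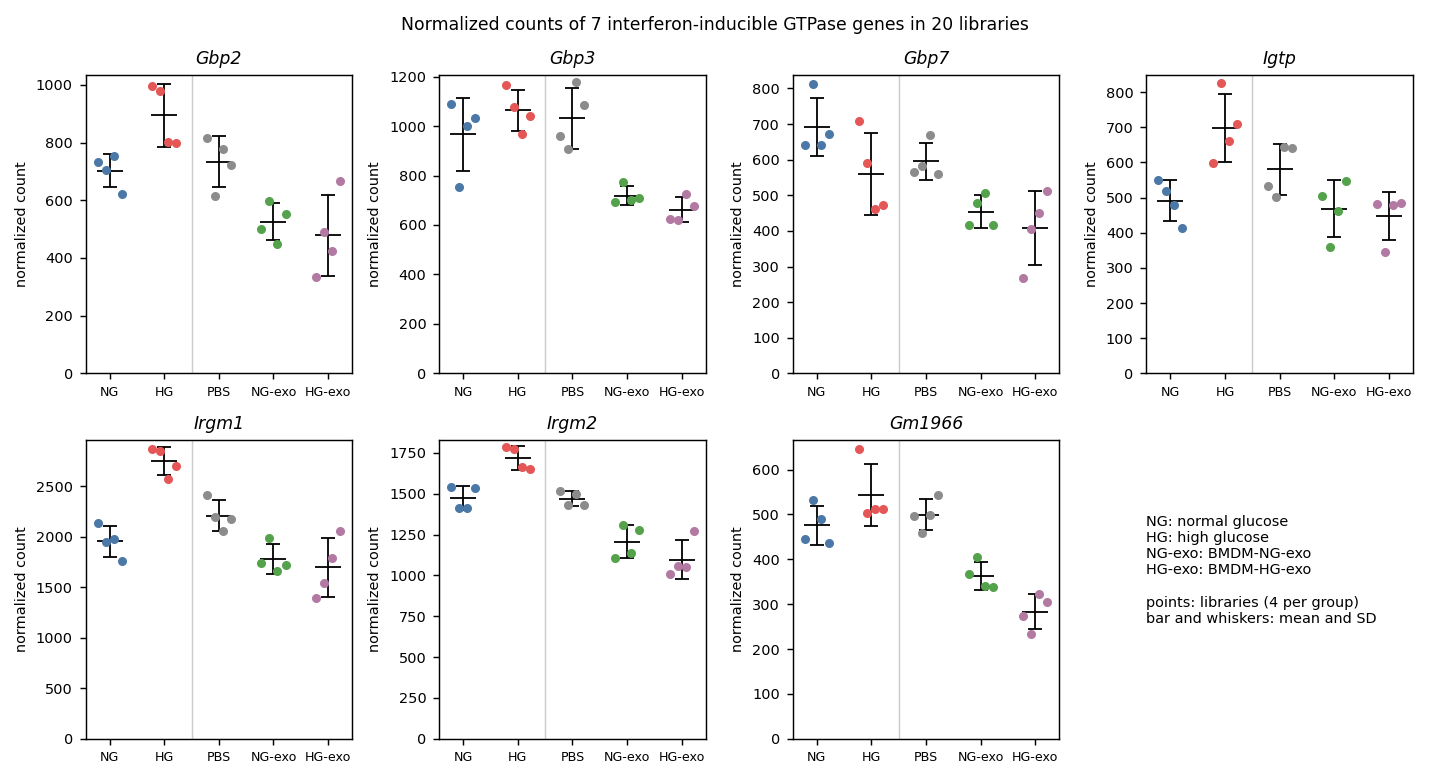
Normalized count (y axis, from 0) of each of the 7 genes in the 5 groups (x axis). Points are libraries, and bars with whiskers are the mean and SD of 4 libraries. BMDM-HG-exo has the lowest mean in every panel, and high glucose the highest in every panel but that of Gbp7. The genes were chosen on values of BMDM-HG-exo.

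Across the 5 groups, 5 of the 7 genes had the same order of means, namely high glucose, PBS, normal glucose, BMDM-NG-exo and BMDM-HG-exo. In Irgm2, normal glucose and PBS changed places, with means of 1476 and 1471 normalized counts. Gbp7 differed, with normal glucose first and high glucose between PBS and BMDM-NG-exo. The highest mean was between 1.56 times (Igtp) and 1.92 times (Gm1966) the lowest. The choice of the genes rested on values of BMDM-HG-exo. The last place of this group and these ratios may therefore be partly set by the choice. Neighbouring groups in these orders overlapped in 22 of 28 cases, so that most single steps lay within the spread of the libraries. Neighbours in an order of means are by definition the closest groups, and the share over all genes was not counted. The glucose and exosome experiments were separate cultures, and levels across them were not tested.

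In high glucose 4 of the 7 genes rose, Igtp and Irgm1 with the largest values, and Gbp7 fell. These calls came from limma on log2(normalized count + 1), two-sided, with p-values adjusted by Benjamini-Hochberg over the 14425 genes whose mean was 10 or more (adjusted p under 0.05). Over all genes tested, 7.74% were called higher and 5.53% were called lower. With quantile normalization the split over all genes turned from 1116 higher and 798 lower to 789 higher and 872 lower, while Igtp, Irgm1, Irgm2 and Gbp2 were still called higher. All libraries of high glucose lay above all of normal glucose in 4 of the 7 genes, as they did in 9.18% of all genes.

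Irgm1, which protects host membranes and controls other IRGs, had 2135, 1946, 1979 and 1762 normalized counts in normal glucose. In high glucose it had 2868, 2846, 2568 and 2706. The groups were far apart, at 2747 ± 139 and 1955 ± 153 (SD, n = 4), and the log2 fold change was 0.49 (standard error, SE, 0.06, limma adjusted p = 3.59e-08). Irgm1 was called in each of the 20 alternative fits.

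Igtp, a regulatory IRG on the endoplasmic reticulum, had 551, 518, 479.8 and 415 normalized counts in normal glucose. The 4 high glucose libraries had 599, 826, 661 and 709.5, all above them. Its log2 fold change was 0.51 (SE 0.10, limma adjusted p = 0.000401). Irgm2, its neighbour, rose less, from 1542, 1411, 1411 and 1538 normalized counts to 1786, 1774, 1661 and 1654, again without overlap. The log2 fold change of Irgm2 was 0.22 (SE 0.06, limma adjusted p = 0.00823). Whether Igtp rose more than Irgm2 was not tested.

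Among the GBP genes, 1 was called higher, 1 lower and 1 not. Gbp2, which gathers on pathogen vacuoles, had 732, 704, 752 and 622 normalized counts in normal glucose, against 996, 979, 802 and 799.8. No library overlapped, and the log2 fold change was 0.34 (SE 0.09, limma adjusted p = 0.00473). In normal glucose Gbp3 had 1087, 753, 999 and 1031, and its high glucose libraries had 1166, 1078, 969 and 1040.3. These ranges overlapped, with a log2 fold change of 0.15 (SE 0.09, limma adjusted p = 0.289).

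Gbp7 went the other way. Its normal glucose libraries had 641, 812, 642 and 673 normalized counts, and those of high glucose had 708, 592, 463 and 473. Replicate 1 of high glucose lay among the normal glucose libraries, while the other 3 lay below all of them. The log2 fold change was -0.32 (SE 0.11, limma adjusted p = 0.0402). Gbp7 kept its direction in all 20 alternatives but lost the call in 10 of them, among these DESeq2 (adjusted p = 0.0623), quantile normalization (0.0684) and the fits without normal glucose replicate 3 (0.156), 5 (0.0515) or 6 (0.0656) or without high glucose replicate 4 (0.187) or 6 (0.184).

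For Gm1966, normal glucose gave 445, 532, 489 and 437 normalized counts, and high glucose gave 646, 504, 512 and 511. Replicate 1 of high glucose stood apart, and the other 3 lay within the range of normal glucose. The log2 fold change was 0.19 (SE 0.10, limma adjusted p = 0.243).

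The macrophage markers moved as well. Their sum was 620993 to 695733 normalized counts in normal glucose and 798427 to 868348 in high glucose, with 3 of 7 called higher (Lyz2, Csf1r and Adgre1) and 2 called lower (Mertk and Cd68). Lyz2 had the largest change, a log2 fold change of 0.42. Their part in the differences of the GTPases was not tested.

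**Figure D2:**
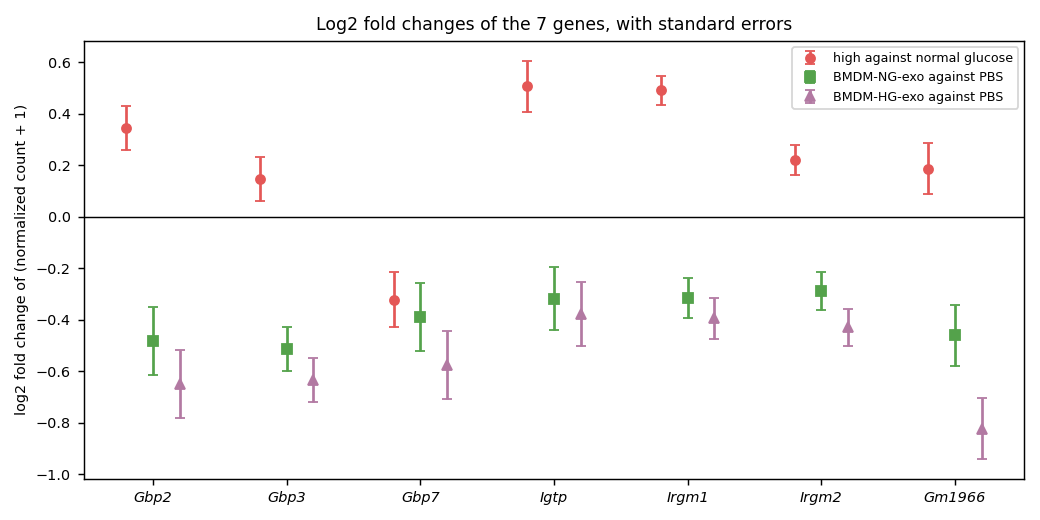
Log2 fold change of (normalized count + 1) (y axis) of each gene (x axis) in high against normal glucose, BMDM-NG-exo against PBS and BMDM-HG-exo against PBS, with standard errors from limma. In high glucose 6 of 7 values are above 0 and Gbp7 is below, while all values of both exosome comparisons are below 0. The exosome comparisons share the PBS libraries, and the genes were chosen on values of BMDM-HG-exo.

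In naive BMDM exposed to exosomes of macrophages kept in normal glucose, most of the GTPase genes were lower than with PBS. The difference in means ran from -30.3% (Gbp3) to -17.9% (Irgm2), and 5 of 7 were called lower by limma (adjusted p under 0.05 and a log2 fold change of 0.15 or more in size). Over the 14413 genes tested, 2.11% were called lower and 0.888% higher. The median log2 fold change was -0.39 over the 7 genes and 0.00 over all genes. In 6 of 7 genes all libraries of BMDM-NG-exo lay below all of PBS, as they did in 4.63% of all genes. The BMDM-HG-exo libraries enter this fit only through the shared variance. The PBS and BMDM-NG-exo libraries were, however, the controls of the contrast that chose the genes. The effect of that choice on these calls was not tested.

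Gbp3 changed most. It had 959, 905, 1179.7 and 1084 normalized counts with PBS and 691, 775, 699.7 and 711 with BMDM-NG-exo. Every library with exosomes lay well below the lowest PBS library, and the log2 fold change was -0.51 (SE 0.09, limma adjusted p = 0.000166). Gbp3 was called in all 24 alternative fits.

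Gbp2 had 817, 615, 779 and 722 normalized counts with PBS and 501, 596, 449.6 and 554 with BMDM-NG-exo. The groups were separate but close, since PBS 2 and BMDM-NG-exo 2 differed little. Its log2 fold change was -0.48 (SE 0.13, limma adjusted p = 0.0319), and the call was lost in 7 of 24 alternatives. Gbp7 had 566, 583, 670.4 and 561 with PBS and 418, 479, 506 and 416 with BMDM-NG-exo. All 4 lay lower, but the log2 fold change of -0.39 did not pass the test (SE 0.13, limma adjusted p = 0.113).

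Among the IRG genes, Irgm1 had 2416, 2192, 2056 and 2175 normalized counts with PBS and 1741, 1991, 1659.8 and 1720.4 with BMDM-NG-exo. Its log2 fold change was -0.31 (SE 0.08, limma adjusted p = 0.0152). Irgm2 had 1518, 1434, 1498 and 1432 with PBS and 1106, 1307, 1138 and 1279 with BMDM-NG-exo, again with no overlap. The log2 fold change of Irgm2 was -0.29 (SE 0.07, limma adjusted p = 0.0165). Irgm1 and Irgm2 each lost the call in 4 of 24 alternatives, with a limma adjusted p of up to 0.293 and 0.165. Igtp had 534, 502, 645 and 641 with PBS and 505, 359, 463 and 547 with BMDM-NG-exo. These ranges overlapped, and its log2 fold change of -0.32 did not pass (SE 0.12, limma adjusted p = 0.205).

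Gm1966 had 498, 459, 498 and 543 normalized counts with PBS and 368, 405, 341 and 338 with BMDM-NG-exo. The groups were well apart, with a log2 fold change of -0.46 (SE 0.12, limma adjusted p = 0.0183). Its call was lost in 4 of 24 alternatives, among them the fits without PBS 4 (adjusted p = 0.0763), BMDM-NG-exo 3 (0.0719) or BMDM-NG-exo 4 (0.0605).

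The number of genes called depended on single libraries. It fell from 5 to 2 without PBS 1, to 3 without PBS 4 or BMDM-NG-exo 1, and to 1, Gbp3, without BMDM-NG-exo 3. DESeq2 on the recovered reads called 3 of them (Gm1966, Gbp3 and Irgm2) and edgeR called 5, while the direction was the same for all 7 genes in each alternative.

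Within dates, all 7 genes were lower with BMDM-NG-exo than with PBS on each of the 4 dates. On a date the 7 genes share 1 pair of libraries, and the share over all genes was not counted. The median log2 ratio of the 7 genes was -0.18 on the date of replicate 2, -0.48 on that of replicate 3, -0.46 on that of replicate 1 and -0.38 on that of replicate 4. Igtp had its lowest value of each exosome group in replicate 2, at 502, 359 and 346 normalized counts. The sum of the macrophage markers was 785780.2 to 831767 with PBS and 710680.5 to 766373 with BMDM-NG-exo, and 4 of 7 (Fcgr1, Csf1r, Adgre1 and Itgam) were called lower. The other 3 were not called, with log2 fold changes of -0.09 for Lyz2, 0.10 for Cd68 and 0.09 for Mertk. The part of the markers in the result was not tested.

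With BMDM-HG-exo the means of all 7 genes were below those with BMDM-NG-exo, and in 6 of 7 the libraries overlapped. The contrast of BMDM-HG-exo with the other groups chose the genes, so its values are given as a description. Over all genes, limma called 0.132% lower and 0.0694% higher in BMDM-HG-exo against PBS and BMDM-NG-exo combined. Against BMDM-NG-exo alone, limma called 2 of 14413 genes, and 942 had an unadjusted p under 0.05. Against PBS, the means differed by -43.2% (Gm1966) to -22.8% (Igtp). Against BMDM-NG-exo, they differed by -21.9% (Gm1966) to -4.32% (Igtp). All 4 libraries lay below all PBS libraries in 5 of 7 genes (5.59% of all genes), and below all BMDM-NG-exo libraries in Gm1966 alone (2.01% of all genes). Gm1966 was also the gene whose BMDM-HG-exo libraries lay below both control groups, as in 0.597% of all genes. Among the other 21 GTPase genes, 1, the IRG gene Gm5431, also had all BMDM-HG-exo libraries below both control groups.

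Gm1966 had 274, 233, 322 and 305 normalized counts with BMDM-HG-exo, against 338 to 405 with BMDM-NG-exo. The log2 fold change was -0.82 (standard error 0.12) against PBS, -0.36 (standard error 0.12) against BMDM-NG-exo and -0.59 (standard error 0.13) against both combined. For comparison, BMDM-NG-exo against PBS gave -0.46 (standard error 0.12), and these comparisons share libraries. The 2 control groups themselves did not overlap.

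Among the GBP genes, the libraries of Gbp2 and Gbp7 spread widely, with coefficients of variation of 29.4% and 25.6%, and those of Gbp3 did not (7.50%). Gbp2 had 335, 491, 423 and 667 normalized counts with BMDM-HG-exo, and its highest library lay above all BMDM-NG-exo libraries and above PBS 2. Gbp7 had 267, 406, 449.6 and 513, and Gbp3 had 625, 621, 726 and 676. Their log2 fold changes against BMDM-NG-exo were -0.17, -0.19 and -0.12, with standard errors of 0.13, 0.13 and 0.09.

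The libraries of all 3 IRG genes overlapped with those of BMDM-NG-exo. Irgm1 had 1395, 1546, 1792 and 2057 normalized counts with BMDM-HG-exo, Irgm2 had 1007, 1056, 1052 and 1271, and Igtp had 483, 346, 480.1 and 484. Against BMDM-NG-exo their log2 fold changes were -0.08 (Irgm1), -0.14 (Irgm2) and -0.06 (Igtp), with standard errors of 0.08, 0.07 and 0.12. In 5 of 7 genes the highest BMDM-HG-exo library was replicate 4, and in 4 of 7 the lowest was replicate 1. The macrophage markers summed to 727963 to 751990 normalized counts with BMDM-HG-exo, and 2 of 7, Itgam and Fcgr1, were called lower against both controls by limma. Their part in the result was not tested.

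**Figure D3:**
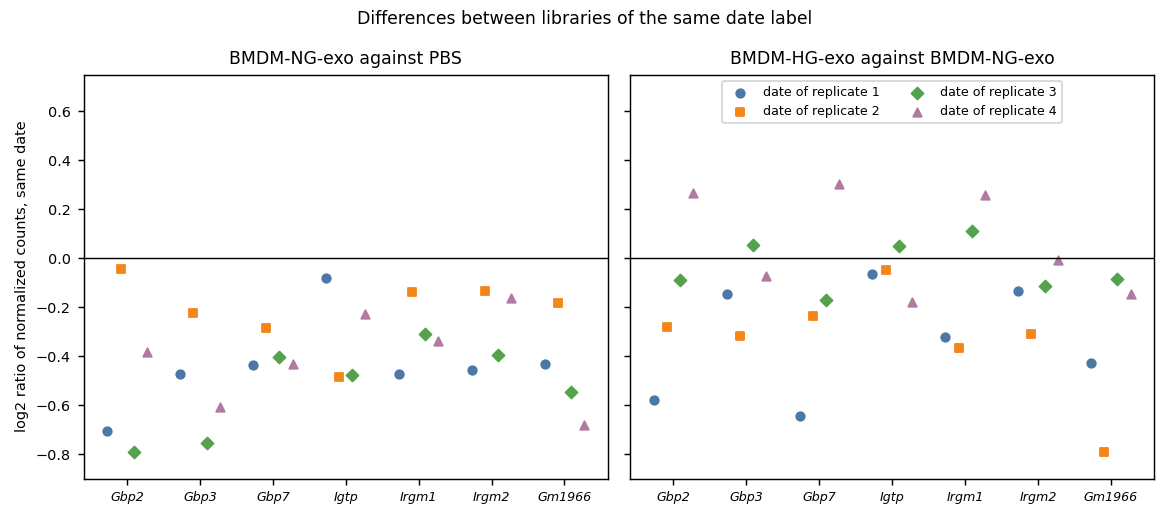
Log2 ratio of normalized counts between libraries of the same date (y axis) for each gene (x axis), for BMDM-NG-exo against PBS (left) and BMDM-HG-exo against BMDM-NG-exo (right). Symbols stand for the dates of replicates 1 to 4. All 28 ratios on the left are below 0, whereas those on the right fall on both sides of 0 for the dates of replicates 3 and 4. The panels share the BMDM-NG-exo libraries.

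The difference between both kinds of exosomes varied between dates. On the dates of replicates 1 and 2, all 7 genes were lower with BMDM-HG-exo than with BMDM-NG-exo, with median log2 ratios of -0.32 and -0.31. On the dates of replicates 3 and 4, 4 of 7 genes were lower, with medians of -0.08 and -0.01. Gm1966 and Irgm2 were lower on all 4 dates, Irgm2 by only 0.0087 on the log2 scale on the date of replicate 4. On that date Gbp2, Gbp7 and Irgm1 were higher with BMDM-HG-exo, by log2 ratios of 0.27, 0.30 and 0.26.

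The other 21 listed genes covered further GBP and IRG genes, the very large GTPases and the Mx genes. In high glucose 10 of them were called higher and 1, Gbp8, lower (7.74% and 5.53% of all genes), with a median log2 fold change of 0.19. The GTPase gene Mx1 rose from 1316 to 2154 normalized counts (log2 fold change 0.72, limma adjusted p = 3.21e-08). Its relative Mx2 (annotated as a polymorphic pseudogene) rose by 0.59. Whether either makes a working protein in these cells was not tested. Among IRG genes, Gm12250 (annotated as a processed pseudogene) rose by 0.83, Ifi47 by 0.69, Tgtp2 by 0.72 and Iigp1, an effector IRG that coats parasite vacuoles, by 0.99 on the log2 scale. Gbp8 fell, with a log2 fold change of -0.91 (limma adjusted p = 0.0115). It overlaps Gbp4 and Gbp9 on the same strand. The means of these neighbours went from 22.2 to 29.9 (Gbp4) and from 1499 to 1568 (Gbp9) normalized counts. Whether the Gbp8 counts hold reads of either was not tested.

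With BMDM-NG-exo against PBS, 12 of the 21 were called lower and 0 higher by limma (2.11% and 0.888% of all genes). The median log2 fold change was -0.55. By edgeR and by DESeq2, 11 were lower and 0 higher, and 13 had an unadjusted p under 0.05 by limma (1947 of all 14413 genes tested). Mx1 fell from 1408 to 754 normalized counts, a log2 fold change of -0.90 (limma adjusted p = 3.47e-07). Gvin1, a protein-coding very large GTPase, fell by 0.59 and its relatives Gm4070 and Gm8995, the latter a pseudogene at 18556 normalized counts with PBS, fell by 0.46 and 0.19. Ifi47 fell by 0.62 and Gm5431 by 0.26. In BMDM-HG-exo against both controls, 0 of the 21 were called by limma and by edgeR and 3 by DESeq2, although 12 had an unadjusted p under 0.05 by limma (1511 of the 14413 genes tested had one). The 3 with the highest levels, Gm8995, 9930111J21Rik2 and 9930111J21Rik1, had log2 fold changes of -0.11, -0.05 and -0.00. Against BMDM-NG-exo alone, the BMDM-HG-exo means of Gvin1, Gm4070 and Gm8995 differed by 8.31%, -1.23% and -0.870%, with overlapping libraries. That of Gm1966 differed by -21.9%.

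The interferon pathway was described from lists of its ligands, receptors, signal carriers and targets. None of 10 interferon genes, Ifng and Ifnb1 among them, was listed in the table. All 4 receptor genes were listed, and limma, edgeR and DESeq2 called 0 of them in both high glucose and BMDM-NG-exo. In high glucose 0 of 4 had an unadjusted p under 0.05 by limma (3663 of all 14425 genes tested had one). With BMDM-NG-exo all 4 had one (1947 of 14413 genes), with log2 fold changes between -0.14 and -0.10, smaller than the limit of 0.15. Ifngr1, a chain of the interferon-gamma receptor, had the smallest p (limma adjusted p = 0.0449).

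Of 11 kinases and transcription factors, 6 were called higher in high glucose, against 7.74% of all genes. Stat2 rose by 0.33, Nlrc5, the class I transactivator, by 0.32 and Ciita, the class II transactivator, by 0.55 on the log2 scale, with Irf1 and Irf9 also called. With BMDM-NG-exo 5 were called lower, against 2.11% of all genes. Among them were Stat2 (log2 fold change -0.42, limma adjusted p = 1.66e-05), Irf9 (-0.22), Ciita (-0.60) and Nlrc5 (-0.21). The kinases Jak1, Jak2 and Tyk2 were called in neither comparison. Of 6 inhibitors, Usp18, which cleaves Isg15 and dampens type I interferon receptors, and the phosphatase Ptpn6 were called in both. Usp18 had log2 fold changes of 0.85 in high glucose and -0.65 with BMDM-NG-exo, and Ptpn6 had 0.27 and -0.23.

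Interferon-stimulated genes outside the GTPases formed the longest list. In high glucose 33 of 35 were called higher and 0 lower by limma (7.74% and 5.53% of all genes). By edgeR 33 and by DESeq2 32 were called higher. The median log2 fold change was 0.46, against -0.00 over all genes. Ifit1 rose by 0.98, Ifit3 by 0.91 and Cmpk2 by 0.87, and Ifitm3, which blocks viral entry, rose by 0.49. With BMDM-NG-exo 30 of 35 were called lower and 0 higher by limma (2.11% and 0.888% of all genes). By edgeR 31 and by DESeq2 33 were called lower, and the median was -0.46. Slfn5 fell by 0.43, Irf7, which drives type I interferon genes, by 0.78, Ifit2 by 0.79 and Oasl2 by 0.58. In BMDM-HG-exo against both controls all 35 had lower means (49.8% of all genes did) and 27 an unadjusted p under 0.05 by limma (1511 of 14413 genes), but 0 were called by limma or edgeR and 1 by DESeq2. Samhd1 and Oasl2 had the smallest p, with log2 fold changes of -0.18 and -0.44. The combined controls were not alike here, since 30 of 35 were called lower with BMDM-NG-exo than with PBS. For this list, BMDM-HG-exo against BMDM-NG-exo alone was not counted.

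**Figure D4:**
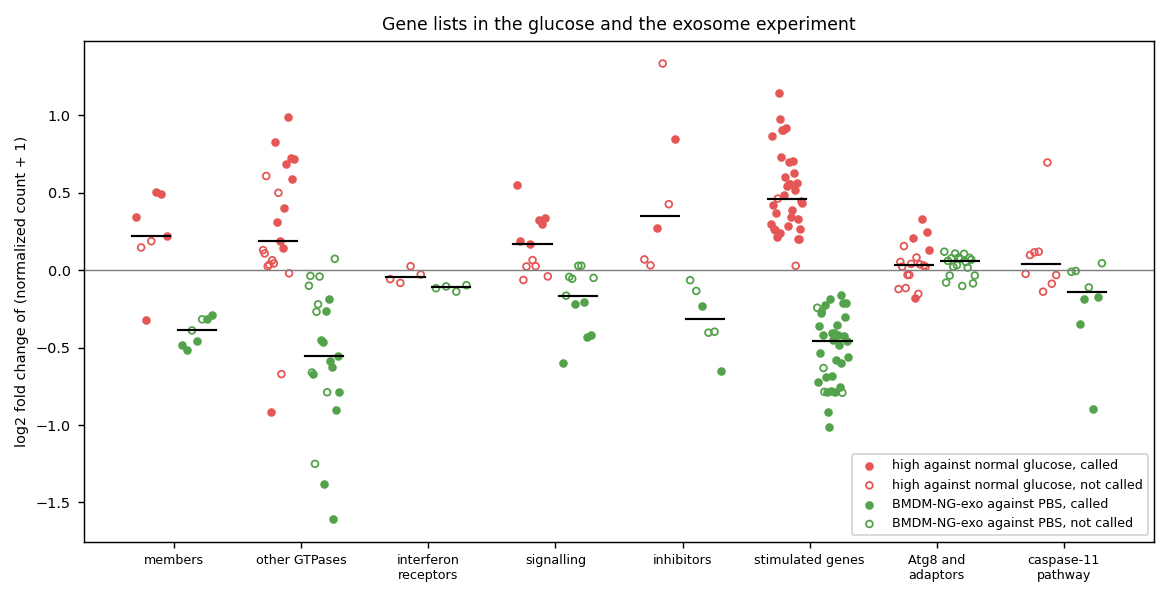
Log2 fold change of (normalized count + 1) (y axis) for the 7 genes and for 7 lists of related genes (x axis), in high against normal glucose and in BMDM-NG-exo against PBS. Filled points passed the test, open points did not, and black bars are medians. The interferon-stimulated genes have medians of 0.46 and -0.46, while those of the Atg8 list are 0.03 and 0.06.

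A last pair of lists held genes that work beside the GTPases. The Atg8 conjugation system, Atg5 and Atg7 among its members, directs GBPs and IRGs to vacuoles. Of 18 genes of this system and of ubiquitin adaptors, 4 were called higher in high glucose (Sqstm1, log2 fold change 0.33, Lgals3, 0.21, Trim21, 0.25, and Ubqln1, 0.13) and 1 lower (Lgals8, -0.18). Over all genes tested, 7.74% were called higher in high glucose and 5.53% lower. With BMDM-NG-exo 0 of 18 were called by limma, edgeR or DESeq2. By limma 2 had an unadjusted p under 0.05, near the share over all genes (1947 of 14413). The caspase-11 pathway, which GBPs feed by exposing bacterial lipopolysaccharide, had 4 of 8 genes called lower with BMDM-NG-exo (2.11% of all genes were). Casp4 (the gene of caspase-11) had a log2 fold change of -0.35, Gsdmd, the pore protein it cleaves, -0.19, Il1b -0.90 and Nlrp3 -0.17. In high glucose 0 of the 8 were called by limma and by edgeR and 1 by DESeq2. By limma 2 had an unadjusted p under 0.05, near the share over all genes (3663 of 14425). Gsdmd and Il1b had log2 fold changes of 0.12 and 0.70.

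Across the 20 libraries, the 21 pairs of the 7 genes had Pearson correlations of log2 values between 0.23 and 0.94 (median 0.73). After the group means were removed they lay between -0.11 and 0.77 (median 0.28), with 19 of 21 above 0. These pairs share libraries, and the values are a description. Among the 11691 genes whose mean was 50 or more, the pattern of Irgm1 was most like those of Oasl2 (r = 0.954), Ifit3 (0.953) and Isg15 (0.950). Gbp2 was most like Zbp1 (0.962), Mx1 (0.936) and Ifit3 (0.931), and Irgm2 like Ifi209 (0.963), Zbp1 (0.954) and Clec4a1 (0.954). For Gbp3 the nearest were Fcgr1 (0.907), an interferon-inducible Fc receptor, Clec4a1 (0.900) and Clec4a3 (0.897). Gm1966 stood closest to Ms4a6b (0.925), Fcgr1 (0.923) and Ifi211 (0.919). Gbp7 and Igtp had lower values. Among their nearest genes were Pot1b (0.899) and AW112010 (0.872) for Gbp7, and Nucb2 (0.831), Ptprj (0.831) and Znfx1 (0.826) for Igtp. Within groups, the correlation of Gbp2 with Zbp1 was 0.889 and that of Irgm1 with Oasl2 was 0.885, and that of Gm1966 with Ms4a6b was 0.745. Other pairs were much lower within groups. Gbp3 had 0.404 with Fcgr1 and 0.386 with Clec4a1, Gm1966 had 0.388 with Fcgr1, and Igtp had 0.458 with Znfx1.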

How the data were processed

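Stranded total RNA libraries of BMDM were measured in 20 samples of 5 groups. Per the labels, the authors trimmed reads with cutadapt, aligned them to GRCm38 by STAR, and featureCounts gave counts per gene. They divided the counts by DESeq2 size factors, so that the deposited signal is a normalized count. Whole reads were recovered from the smallest step of each column (100% whole within 0.01 reads); in 2 columns the step is close to 1. The table had no column without a sample (0), and the median read count of each listed gene was at least 11. The annotation used for counting is not given in the sources used here, and 14421 identifiers matched GENCODE M21.

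Log2(normalized count + 1) was fitted with limma 3.58.1 in R 4.3.3 (lmFit, eBayes with trend), two-sided, with Benjamini-Hochberg adjustment over genes whose mean was 10 or more, in 8 glucose or 12 exosome libraries. edgeR 4.0.16 and DESeq2 1.42.0 on recovered reads, other pseudocounts, filters and normalizations, the replicate block and each library left out were alternatives. The dates of the exosome libraries pair them by label. After removal of group means, libraries of the same date correlated with a mean r of 0.012 (12 pairs, from -0.0178 to 0.0556) and others with -0.00397 (36 pairs). No 2 libraries of a group were copies (chi-square per degree of freedom 5.19 to 41.9, 30 pairs). The fits were also run on simulated reads, drawn independently for each gene and library. The outcome is not given here, and such reads hold no dates and no genes that move together. The genes and lists were chosen with earlier results of these data known. All 7 genes are named in each comparison. Of the other GTPases, up to 6 called genes with the smallest p or the 3 with the highest mean are named, and of other lists up to 4 genes with the smallest p, with all called genes if there were 5 or fewer. Irf1 and Irf9 in high glucose, and a few further genes of the lists, were named after their values were seen. Some genes that the rule names are not reported here. Promoter sequences are those of RefSeq (GRCm38.p6) and were found for 7 of 7 genes. Other steps used Python 3.11.15 with pandas 2.3.3 and matplotlib 3.10.9.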

Additional observations from a re-analysis of the deposited data

Results flagged for a closer look

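In a group of 4, a library was held to stand apart where its gap to the nearest other library, divided by the range of the group, was above Dixon's critical value for 4 samples. Of 35 groups tested (7 genes in 5 groups), 2 met this, and chance gives about 1 in 20. Gm1966 in high glucose replicate 1 had 646 normalized counts against 504 to 512 in the other 3 libraries (ratio of gap to range 0.946). Igtp in BMDM-HG-exo replicate 2 had 346 normalized counts against 480.1 to 484 in the other 3 (0.972).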

How the results depend on the processing

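All 7 log2 fold changes kept their direction in each of the 20 (glucose), 24 (BMDM-NG-exo) and 22 (BMDM-HG-exo) alternatives. In high glucose, 1914 genes and 5 of the 7 were called. Without the trend of the variance these were 654 and 1, with all 20 libraries in 1 fit 3 of the 7, and with each library left out 1370 to 2027 genes and 4 to 5 of the 7. A replicate block on library number gave 788 genes and 3 of the 7. Only 2 numbers occur in both glucose groups, and the labels do not say whether samples of the same number share anything else. With BMDM-NG-exo, 432 genes and 5 of the 7 were called. Without the trend these were 95 and 1, DESeq2 called 3 of the 7, and with each library left out they were 292 to 453 and 1 to 6. With the date as a block, which pairs the libraries, 505 genes and the same 5 of the 7 were called, and no call of the 7 changed. In BMDM-HG-exo against both controls, 29 genes were called, 47 with a pseudocount of 5, 19 with quantile normalization, 1 without the trend and 136 by DESeq2, and with the date as a block 23. Each library left out gave 1 (without BMDM-HG-exo 1) to 204 (without BMDM-NG-exo 3). With the longest transcript, the levels per kb moved from 272 to 331 for Gbp3 and from 358 to 542 for Irgm1. The median correlation of the 21 pairs moved from 0.73 to 0.28 once group means were removed. The cause of these moves was not tested.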
